A study of Homo sapiens with 15 samples.

Results

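The 7 mature miRNAs described here are hsa-miR-34a-5p, hsa-miR-34a-3p, hsa-miR-34b-3p, hsa-miR-34c-5p, hsa-miR-192-5p, hsa-miR-194-5p and hsa-miR-215-5p (the species prefix is dropped from here on), which were taken by name as members of 2 miRNA groups known for arrest of the cell cycle under stress. They are 7 of the 1707 mature miRNAs listed in the counts of small RNA reads from U87-MG cells, an established human glioblastoma line, and all 7 were among the 562 miRNAs with enough counts to be tested. There were 5 groups of 3 libraries. Unedited control cells spent 24 h in either 21% O2 (normoxia) or 1% O2 (hypoxia). Cells without HIF1α (HIF1α-KO), without HIF2α (HIF2α-KO) or without both (HIF1α/HIF2α-KO) spent the same time in 1% O2, and no knockout was measured in normoxia. The knockouts were made with the lentiCRISPRv2 vector and single guide RNAs, and whether each line was a pool or a clone is not given in the sources used here. The assay does not read mRNAs, those of HIF1A (HIF1α) and EPAS1 (HIF2α) included, so the knockouts were not checked in these libraries. The labels do not say whether replicates were separate cultures, and p-values then measure only the spread between these libraries.

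Cells can halt division or start to die after DNA damage and other stress, and part of that response runs through miRNAs. The miR-34 family represses mRNAs for cyclins, cyclin-dependent kinases, MET and BCL2, and miR-192, miR-194 and miR-215 are likewise linked to cell cycle arrest, of which miR-192 and miR-194 are best known from liver, kidney and gut. A miRNA finds its targets mostly through its seed, bases 2 to 8 from the 5′ end. HIF1α and HIF2α are the oxygen-regulated subunits of the hypoxia-inducible factors. The comparisons address whether these miRNAs differ with oxygen and with the loss of either HIF subunit.

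The mature sequences are shown with the seed in capitals, because it is shared by miR-192-5p and miR-215-5p, and by miR-34a-5p with miR-34c-5p and with miRNAs outside the set. They were taken from RefSeq (GRCh38.p14).
miR-192-5p: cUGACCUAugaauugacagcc
miR-215-5p: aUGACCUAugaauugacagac
miR-194-5p: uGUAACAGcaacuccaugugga
miR-34a-5p: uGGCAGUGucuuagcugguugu
miR-34a-3p: cAAUCAGCaaguauacugcccu
miR-34b-3p: cAAUCACUaacuccacugccau
miR-449a: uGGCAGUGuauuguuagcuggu
miR-449c-5p: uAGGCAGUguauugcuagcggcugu

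MiR-192-5p and miR-215-5p share the seed UGACCUA and 19 of their 21 bases (90.5%). Counted from the 5′ end, the changes from miR-192-5p to miR-215-5p are C1A and C20A, close to either end of the molecule. Reads that lose or gain an end base can be hard to assign to the right member of such a pair, and how the authors assigned them is not given in the sources used here, so the separate values of these miRNAs are uncertain to that extent. MiR-449a is no member and carries the same seed as miR-34a-5p, GGCAGUG. The seed of miR-449c-5p, AGGCAGU, is the same run of letters shifted by 1 base.

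The hairpins that give rise to these miRNAs lie at 4 places in the genome (GRCh38). MIR34A (chr1:9151668-9151777, minus strand) lies in an exon of the lincRNA MIR34AHG. MIR34B (chr11:111512938-111513021) and MIR34C (chr11:111513439-111513515) lie on the plus strand of chromosome 11. MIR192 (chr11:64891137-64891246) and MIR194-2 (chr11:64891355-64891439) lie on the minus strand, in exons of the lincRNA MIR194-2HG. MIR215 (chr1:220117853-220117962) and MIR194-1 (chr1:220118157-220118241) lie in an intron of IARS2, on the strand opposite to that gene. Both MIR194-1 and MIR194-2 give the same mature miR-194-5p, and the counts cannot tell the 2 sources apart. The shared seed of miR-192-5p and miR-215-5p therefore comes from different chromosomes, and each has a miR-194 hairpin as its neighbour. The hairpins of the pair are shown with the mature 5′ strand in capitals, since the likeness of their products does not extend over the rest of the sequence.
MIR192: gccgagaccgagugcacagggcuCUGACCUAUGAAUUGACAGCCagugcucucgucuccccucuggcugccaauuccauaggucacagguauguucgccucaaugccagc
MIR215: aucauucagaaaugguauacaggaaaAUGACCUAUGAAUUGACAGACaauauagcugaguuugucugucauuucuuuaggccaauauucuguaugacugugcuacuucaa

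The members differed widely in level. Total counts per library ran from 10360337 to 22496373, and levels are given as counts per 1000000 counts (CPM) after scaling with TMM factors, which correct for differences in library composition. Over the 15 libraries miR-34a-5p had a mean of 293 CPM (range 199 to 486) and ranked 77 of the 562 miRNAs tested. MiR-192-5p followed with 214 CPM (162 to 303), miR-215-5p with 77.9 CPM (58.1 to 107) and miR-194-5p with 57.7 CPM (44.1 to 79.3). MiR-34c-5p had 8.99 CPM (5.53 to 13.8), miR-34a-3p 1.72 CPM (0.967 to 2.87) and miR-34b-3p 0.672 CPM (0.157 to 1.39). MiR-34b-3p thus lay close to the level that 3 counts represent, 0.133 to 0.290 CPM depending on the library, a floor that covers counting error only.

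MiR-192-5p was higher in cells without HIF1α. In hypoxic control cells it had 162, 172 and 195 CPM in the 3 libraries, and in HIF1α-KO cells 242, 303 and 240 CPM. In HIF1α/HIF2α-KO cells it had 242, 248 and 292 CPM, and in HIF2α-KO cells 174, 196 and 172 CPM. Normoxic control cells had 186, 180 and 202 CPM. All 6 libraries lacking HIF1α were above all 9 libraries with HIF1α, and neither the HIF2α-KO libraries nor the normoxic control libraries were separated from the hypoxic control libraries.

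MiR-215-5p was also highest in the groups without HIF1α, at a lower level. Hypoxic control cells had 60.0, 73.1 and 71.3 CPM, HIF1α-KO cells 91.8, 107 and 82.3 CPM, and HIF1α/HIF2α-KO cells 85.6, 92.0 and 95.7 CPM. HIF2α-KO cells had 66.5, 67.7 and 58.1 CPM, and normoxic control cells 67.9, 74.0 and 75.0 CPM. Again, each of the 6 libraries without HIF1α lay above each of the 9 with HIF1α. Of all 562 miRNAs tested, 6 (1.07%) were higher in this way without overlap, and miR-192-5p and miR-215-5p were 2 of these 6. The split of the libraries by HIF1α was made after their values had been seen and carries no test.

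**Figure D1:**
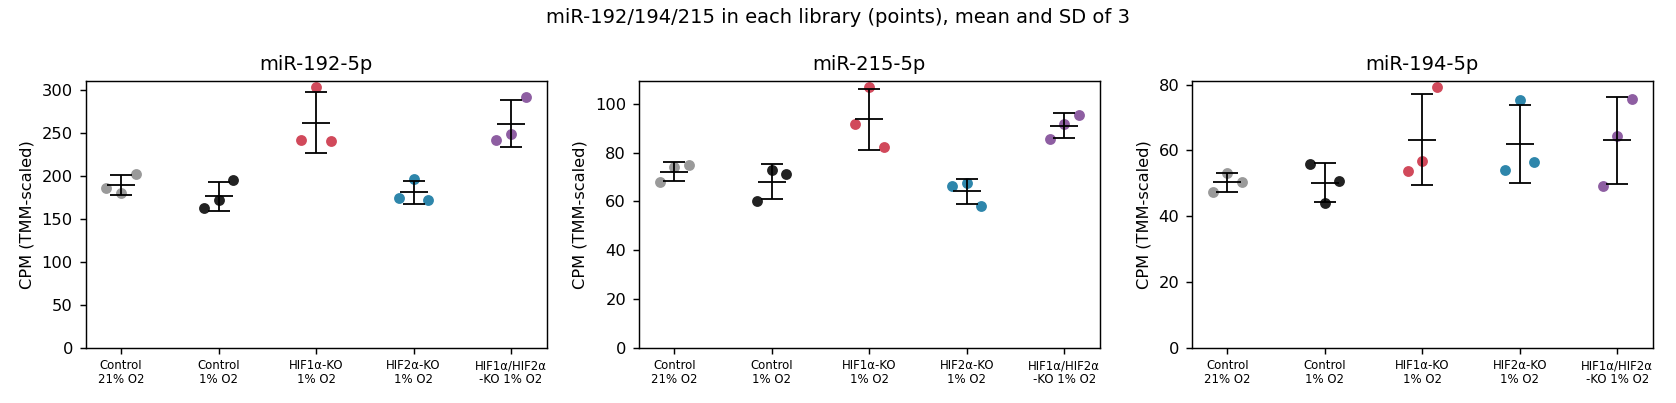
Level of miR-192-5p, miR-215-5p and miR-194-5p (y axis, TMM-scaled CPM from 0) in the 5 groups (x axis), with 1 point per library and the mean and SD of 3 libraries in black. The HIF1α-KO and HIF1α/HIF2α-KO points of miR-192-5p (240 to 303 CPM) and miR-215-5p (82.3 to 107 CPM) sit above all other points, while those of miR-194-5p overlap with the other groups.

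The difference in miR-192-5p passed the test in HIF1α/HIF2α-KO cells. Compared with hypoxic control cells (176 ± 17.1 CPM, SD, n = 3), it was 1.48-fold higher in HIF1α/HIF2α-KO cells (261 ± 27.0 CPM), with a log2 fold change of 0.56 (SE 0.13, 95% interval 0.28 to 0.85, edgeR adjusted p = 0.0241). It was the only 1 of the 7 members called in this comparison, in which 5.87% of all miRNAs tested were called. This call was lost without control hypoxia replicate 1 (adjusted p = 0.0835), without control hypoxia replicate 2 (adjusted p = 0.0831) and without HIF1α/HIF2α-KO replicate 3 (adjusted p = 0.1), and so rested on each of these libraries. In HIF1α-KO cells (262 ± 35.9 CPM) the log2 fold change was 0.57 (SE 0.13, 95% interval 0.28 to 0.86), with an edgeR adjusted p of 0.0586 that missed the threshold. No member was called there, against 1.25% of all miRNAs tested. Between the knockouts that lack HIF1α the log2 difference was -0.01 (95% interval -0.29 to 0.28).

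For miR-215-5p the log2 fold changes from hypoxic control cells (68.1 ± 7.13 CPM) were 0.46 (SE 0.14) in HIF1α-KO cells (93.8 ± 12.6 CPM) and 0.42 (SE 0.14) in HIF1α/HIF2α-KO cells (91.1 ± 5.07 CPM). Neither passed the adjustment over all miRNAs in edgeR (adjusted p = 0.154 and 0.0742), although unadjusted p-values were 0.00548 and 0.00998. At an unadjusted p under 0.05, 2 of 7 members (miR-192-5p and miR-215-5p) passed in HIF1α-KO cells and 3 of 7 in HIF1α/HIF2α-KO cells, beside 11.9% and 24.4% of all miRNAs. In 3 libraries against 3 the exact permutation test cannot give a p below 0.1, which both miRNAs reached in both comparisons. For these 2 of 7 members HIF1α-KO and hypoxic control libraries did not overlap, beside 21.5% of all miRNAs.

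The direct comparison of HIF2α-KO with HIF1α-KO cells gave the same picture for miR-192-5p and miR-215-5p. MiR-192-5p had a log2 fold change of -0.53 (SE 0.13) and miR-215-5p of -0.55 (SE 0.14) in HIF2α-KO relative to HIF1α-KO cells, with edgeR adjusted p-values of 0.0626 and 0.0650. No member passed in this comparison, beside 1.07% of all miRNAs, and 4 of 7 members had an unadjusted p under 0.05, beside 17.4%. The other 2 of these 4, miR-34a-5p and miR-34a-3p, went the other way. They were higher in HIF2α-KO cells, with log2 fold changes of 0.50 and 0.69 (edgeR adjusted p = 0.279 for each). The libraries of the 2 knockouts did not overlap for miR-192-5p and miR-215-5p, nor for 20.5% of all miRNAs. Leaving out HIF1α-KO replicate 3 brought both miRNAs past the threshold (edgeR adjusted p = 0.0300 for each). When HIF1α/HIF2α-KO cells were compared with HIF2α-KO cells, the log2 fold changes were 0.53 for miR-192-5p and 0.51 for miR-215-5p (edgeR adjusted p = 0.0728 and 0.0790). None of the 7 members was called, with 1.78% of all miRNAs called, and 3 of 7 against 19.9% had an unadjusted p under 0.05. Groups did not overlap for 3 of 7 (miR-192-5p, miR-215-5p and miR-34c-5p, the last of them lower), beside 20.5% of all miRNAs. Without HIF1α/HIF2α-KO replicate 2, miR-192-5p passed in this comparison (edgeR adjusted p = 0.0491). The effect of HIF1α loss on miR-192-5p did not differ detectably with the state of HIF2α, since the interaction was -0.04 on the log2 scale (95% interval -0.45 to 0.36), and no member was called in it (0% of all miRNAs were).

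MiR-194-5p, the cluster neighbour of both miR-192 and miR-215, overlapped between the 4 hypoxic groups. It had 55.8, 44.1 and 50.7 CPM in hypoxic control cells and 53.7, 56.8 and 79.3 CPM in HIF1α-KO cells. The HIF2α-KO libraries had 53.9, 75.4 and 56.3 CPM, the HIF1α/HIF2α-KO libraries 49.2, 64.3 and 75.5 CPM, and the normoxic control libraries 47.4, 53 and 50.3 CPM. Each knockout group had 1 or more libraries inside the range of the hypoxic control libraries and 1 or more above it. The normoxic control libraries were below all HIF1α-KO and all HIF2α-KO libraries, pairs that differ in both oxygen and genotype and were not tested. The log2 fold changes from hypoxic control cells were 0.33 for loss of HIF1α, 0.30 for loss of HIF2α and 0.33 for loss of both (edgeR adjusted p = 0.545, 0.551 and 0.377). The interval of the change in HIF1α-KO cells, -0.10 to 0.77, includes the change of miR-192-5p. The difference between these neighbours, tested as the ratio of miR-192-5p to miR-194-5p, was not detectable between HIF1α-KO and hypoxic control cells (exact permutation p = 0.4). That ratio was 4.22 ± 0.618 in HIF1α/HIF2α-KO cells and 2.97 ± 0.324 in HIF2α-KO cells, without overlap (exact permutation p = 0.1, the smallest that 3 against 3 allows). Such tests were made for 5 ratios in 7 comparisons, and none could pass an adjustment over them.

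Across libraries miR-192-5p and miR-215-5p kept a narrow ratio. The ratio of miR-192-5p to miR-215-5p stayed between 2.35 and 3.05 in all 15 libraries, with a median of 2.73, while the ratio of miR-192-5p to miR-194-5p ran from 2.61 to 5.34. For the other pair with a shared seed, miR-34a-5p to miR-34c-5p, the ratio ran from 26.9 to 47.4. Because the libraries with and without HIF1α form separate clusters, the correlation of log2 levels of miR-192-5p and miR-215-5p is given within each. It was r = 0.87 (exact permutation p = 0.00417) and rho = 0.94 (exact permutation p = 0.0167) over the 6 libraries without HIF1α. It was r = 0.61 (exact permutation p = 0.0858) and rho = 0.52 (exact permutation p = 0.162) over the 9 with HIF1α. Without the 2 libraries farthest from the median of miR-192-5p, r was 0.73 and 0.28, so that the relation among the libraries with HIF1α rested on those 2. MiR-194-5p gave r = 0.45 and rho = 0.39 with miR-192-5p, and r = 0.25 and rho = 0.21 with miR-215-5p, over 15 libraries (permutation tests with Benjamini-Hochberg adjustment over 6 pairs, p = 0.141 and 0.222, then 0.448 and 0.540). Without the 2 farthest libraries these r values were 0.36 and 0.03.

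**Figure D2:**
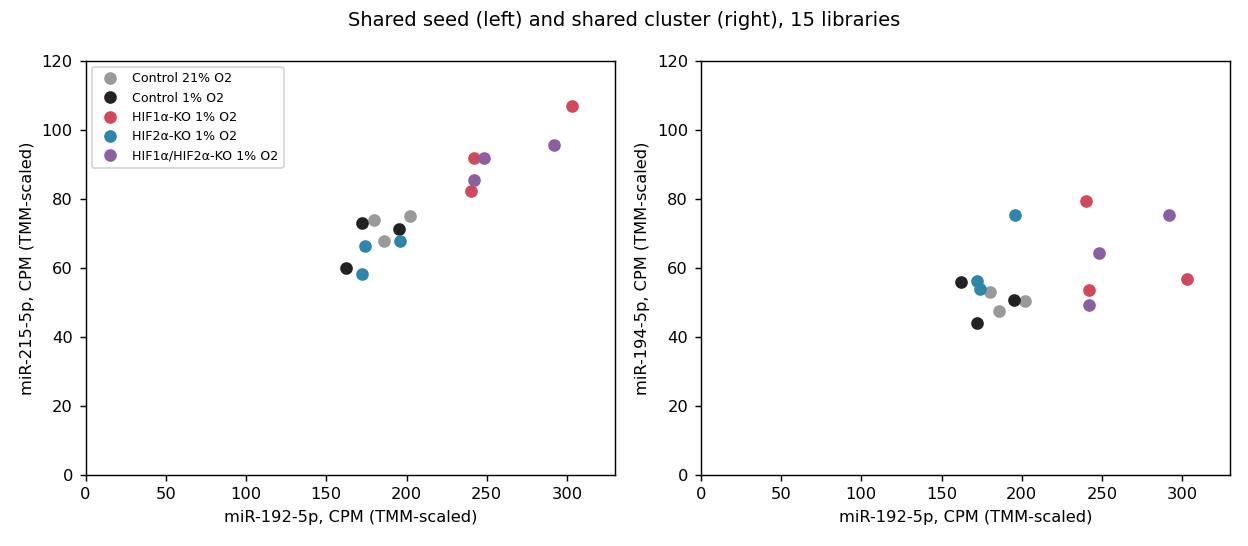
Level of miR-215-5p (left) and miR-194-5p (right) against miR-192-5p, all as TMM-scaled CPM, in 15 libraries coloured by group. On the left the libraries without HIF1α (240 to 303 CPM of miR-192-5p) form a cluster apart from the others (162 to 202 CPM), and on the right the miR-194-5p levels of the same libraries (49.2 to 79.3 CPM) overlap with the rest (44.1 to 75.4 CPM).

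Markers of other tissues were looked at beside this result, since miR-192 and miR-194 are abundant in epithelia and liver. All 3 epithelial markers (miR-200c-3p, miR-141-3p and miR-205-5p) were detected, and their sum was 36.2 to 60.6 CPM in HIF1α-KO and 32.3 to 45.5 CPM in HIF1α/HIF2α-KO cells, overlapping with the 43.3 to 78.2 CPM of hypoxic control cells and not above them. Alone, miR-200c-3p was 34.8 to 39.0 and 30.4 to 35.7 CPM, below the 41.8 to 52.4 CPM of hypoxic control cells. Groups did not overlap for 21.5% and 30.4% of all miRNAs either. It was not called, and miR-141-3p and miR-205-5p overlapped with hypoxic control cells. The liver marker miR-885-5p had 1.71 to 2.61 CPM in HIF1α-KO, 4.02 to 5.23 CPM in HIF1α/HIF2α-KO and 1.75 to 4.61 CPM in hypoxic control cells. A further liver marker, miR-122-5p, was not listed under that name in the counts, so it has no value here. The sum of 3 skeletal muscle markers was 8.45 to 44.2 CPM in HIF1α-KO and 20.2 to 45.1 CPM in HIF1α/HIF2α-KO cells, against 6.73 to 27.9 CPM in hypoxic control, 2.50 to 18.6 CPM in HIF2α-KO and 1.63 to 7.48 CPM in normoxic control cells, with miR-206 at 0.227 CPM or less. Its part in the result was not tested. The endothelial miR-126 strands divided the libraries into 6 with a low sum (4.01 to 6.64 CPM) and 9 with a higher sum (14.0 to 50.8 CPM). In the low set miR-192-5p had 172 and 195 CPM in hypoxic control, 242 and 303 CPM in HIF1α-KO, 196 CPM in HIF2α-KO and 292 CPM in HIF1α/HIF2α-KO libraries. In the higher set the values were 162 CPM, 240 CPM, 172 and 174 CPM, and 242 and 248 CPM in the same order. The libraries without HIF1α were above the others in both sets. The separation over all libraries already fixed that order, so it is no separate test of miR-126. With the log2 level of the summed miR-126 strands as a covariate, in place of the 2 sets, the edgeR test called miR-192-5p in HIF1α-KO cells. It called both miR-192-5p and miR-215-5p in HIF1α/HIF2α-KO cells. Calls over all miRNAs tested rose as well. With the covariate 4 were higher and 7 lower in HIF1α-KO cells, against 7 in either direction without it. In HIF1α/HIF2α-KO cells 33 were higher and 38 lower, against 33 in either direction without it. The summed glioma and glia markers (miR-21-5p, miR-10b-5p and miR-9-5p) stood apart in the comparison in which miR-192-5p was called, at 212000 to 255000 CPM in HIF1α/HIF2α-KO and 171000 to 203000 CPM in hypoxic control cells. Most of the sum was miR-21-5p, at 203000 to 247000 and 160000 to 193000 CPM. The markers did not move together, with log2 fold changes of 0.33 for miR-21-5p, 0.10 for miR-10b-5p and -0.32 for miR-9-5p, none called. Their part in the result was not tested. The sum was 199000 to 217000 CPM in HIF1α-KO cells. Of 2 neuronal markers, miR-124-3p had at most 0.539 CPM, while miR-128-3p had 950 to 2230 CPM over all libraries. MiR-128-3p had 1520 to 2230 CPM in HIF1α-KO and 1630 to 1860 CPM in HIF1α/HIF2α-KO cells. It had 950 to 1640 CPM in HIF2α-KO and 1470 to 2180 CPM in hypoxic control cells, and was not called in any comparison.

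The miR-34 strands did not follow HIF1α. MiR-34a-5p, the main strand of the best known miRNA of its family, had 329, 199 and 238 CPM in hypoxic control cells and 252, 230 and 316 CPM in HIF1α-KO cells. HIF2α-KO cells had 290, 486 and 356 CPM, HIF1α/HIF2α-KO cells 246, 266 and 383 CPM, and normoxic control cells 262, 269 and 267 CPM. The 4 hypoxic groups overlapped, and the normoxic control libraries were below the HIF2α-KO libraries only. The SD was 3.77 CPM in the normoxic control libraries and 44.2 to 99.9 CPM in the hypoxic groups. Relative to hypoxic control cells (255 ± 66.5 CPM), the log2 fold change in HIF2α-KO cells (377 ± 99.9 CPM) was 0.56 (SE 0.23, edgeR adjusted p = 0.277). In HIF1α-KO and HIF1α/HIF2α-KO cells it was 0.06 and 0.22. With total counts in place of TMM the value in HIF2α-KO cells was 0.42, since that scaling moved the median of all miRNAs in this comparison by -0.14.

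MiR-34c-5p, which acts on largely the same targets and comes from chromosome 11, had its lowest group means in control cells and its highest in HIF2α-KO cells. It had 8.02, 7.39 and 6.70 CPM in hypoxic control cells and 10.3, 13.8 and 12.4 CPM in HIF2α-KO cells. HIF1α-KO cells had 9.13, 8.01 and 11 CPM, HIF1α/HIF2α-KO cells 7.49, 9.85 and 8.52 CPM, and normoxic control cells 5.53, 8.17 and 8.51 CPM. The HIF2α-KO libraries were above all hypoxic control libraries and all HIF1α/HIF2α-KO libraries, and overlapped with HIF1α-KO. The log2 fold change of HIF2α-KO from hypoxic control cells was 0.73 (SE 0.21), the largest among the members in that comparison, with an unadjusted p of 0.00383 and an edgeR adjusted p of 0.129. No member and 0% of all miRNAs were called in it. At an unadjusted p under 0.05, 2 of 7 members (miR-34a-5p and miR-34c-5p) and 15.3% of all miRNAs passed. Groups did not overlap for 1 of 7 members, miR-34c-5p, and for 16.4% of all miRNAs. The summed glioma and glia markers also stood apart in these groups, at 211000 to 270000 CPM in HIF2α-KO and 171000 to 203000 CPM in hypoxic control cells. This was mostly miR-21-5p, at 205000 to 258000 and 160000 to 193000 CPM. The log2 fold changes were 0.46 for miR-21-5p, 0.07 for miR-10b-5p and -0.10 for miR-9-5p, none called. Their part in the result was not tested.

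The estimated effect of HIF1α loss on miR-34c-5p had opposite signs with and without HIF2α, but neither estimate passed the threshold. In cells with HIF2α the log2 fold change on HIF1α loss was 0.34 (95% interval -0.10 to 0.79, edgeR adjusted p = 0.545), and in cells without HIF2α it was -0.50 (SE 0.21, edgeR adjusted p = 0.180). Their difference, the interaction, was -0.84 (SE 0.30, unadjusted p = 0.0128, edgeR adjusted p = 0.378) and did not pass, and it was the only 1 of 7 members with an unadjusted p under 0.05 in the interaction, beside 10.5% of all miRNAs. Across 15 libraries the log2 levels of miR-34a-5p and miR-34c-5p were correlated, with r = 0.68 and rho = 0.72 (permutation tests with Benjamini-Hochberg adjustment over 6 pairs, p = 0.0163 and 0.00918). The permutations ignored the groups, so differences between group means enter these p-values. Without the 2 libraries farthest from the median of miR-34a-5p, r was 0.61, and r of the deviations from the group means was 0.50. Within the sets of low and higher miR-126 it was 0.82 and 0.63.

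The other strands of the miR-34 hairpins were scarce. Over all libraries miR-34a-5p took 99.41% of the counts of its hairpin (58267 counts, against 344 for miR-34a-3p) and miR-34c-5p 97.06% of its own. In miR-34b the 3′ strand was the main product, with 93.33% of counts (140, against 10 for miR-34b-5p). MiR-34a-3p was highest in HIF1α/HIF2α-KO cells, with 2.58, 2.27 and 2.87 CPM (41, 30 and 35 counts). Hypoxic control cells had 1.66, 1.04 and 1.53 CPM (18, 24 and 21 counts), HIF1α-KO cells 1.79, 1.12 and 1.08 CPM, HIF2α-KO cells 1.41, 2.47 and 2.56 CPM, and normoxic control cells 0.975, 1.54 and 0.967 CPM. The HIF1α/HIF2α-KO libraries lay above those of hypoxic control and HIF1α-KO cells and overlapped with HIF2α-KO.

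The log2 fold change of miR-34a-3p in HIF1α/HIF2α-KO cells was 0.90 from hypoxic control cells (SE 0.30, edgeR adjusted p = 0.0742) and 0.96 from HIF1α-KO cells (SE 0.30, edgeR adjusted p = 0.130). In the latter comparison no member was called, beside 1.42% of all miRNAs, and miR-34a-3p was the only 1 of 7 with an unadjusted p under 0.05, beside 14.9%. It was also the only member without overlap there, beside 21.4%. In HIF1α/HIF2α-KO against hypoxic control cells, 3 of 7 members (miR-34a-3p, miR-192-5p and miR-215-5p) did not overlap, beside 30.4% of all miRNAs. The ratio of miR-34a-5p to miR-34a-3p counts was 115 ± 19.0 in HIF1α/HIF2α-KO cells, 182 ± 22.8 in hypoxic control cells, 213 ± 76.3 and 180 ± 36.2 where only HIF1α or only HIF2α was lost, and 240 ± 56.4 in normoxic control cells. The HIF1α/HIF2α-KO libraries (95.4 to 133) were below those of every other group (exact permutation p = 0.1 against each of the 3 hypoxic groups, the smallest that 3 against 3 allows), with the 3′ strand at 41 counts or fewer in each.

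MiR-34b-3p had 0.737, 0.562 and 0.582 CPM in hypoxic control cells, and 2 to 18 counts in any library. Its highest value was 1.39 CPM in HIF1α-KO and its lowest 0.157 CPM in HIF2α-KO cells. A difference of the size seen for miR-34c-5p was not detectable at this depth, since the 95% interval of its log2 fold change in HIF2α-KO cells ran from -1.39 to 1.02.

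**Figure D3:**
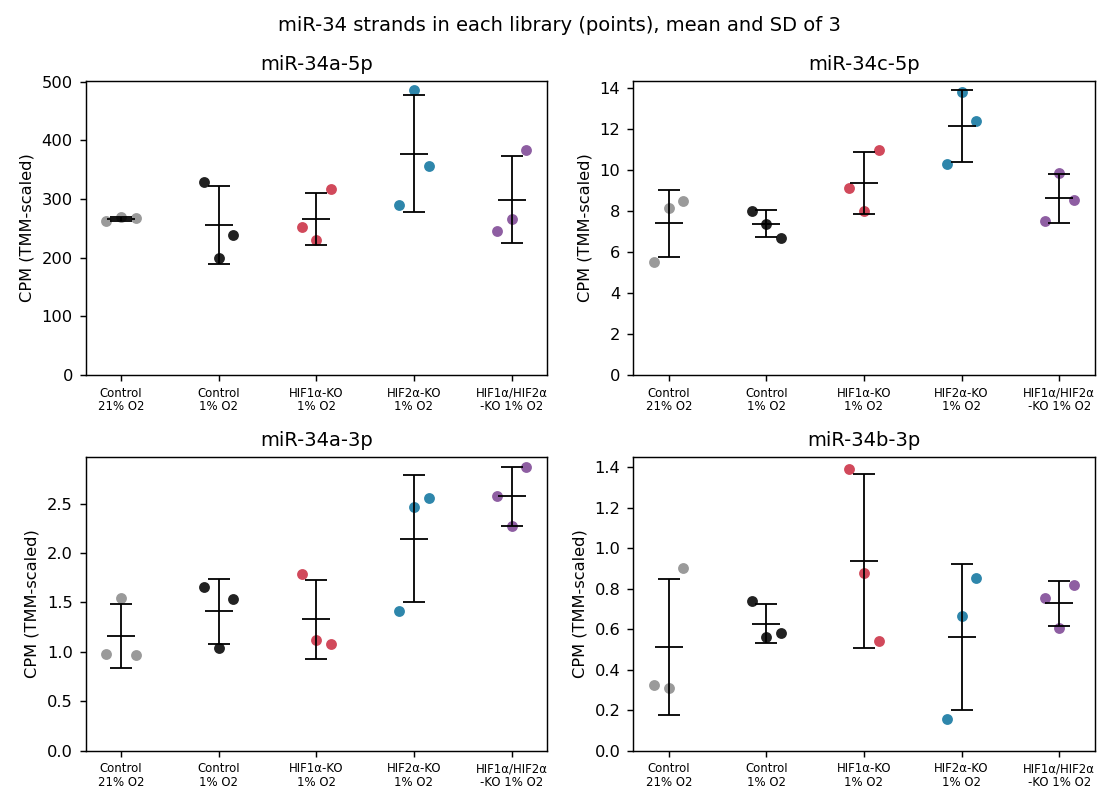
Level of miR-34a-5p, miR-34c-5p, miR-34a-3p and miR-34b-3p (y axis, TMM-scaled CPM from 0) in the 5 groups (x axis), with 1 point per library and the mean and SD of 3 libraries in black. MiR-34c-5p is highest in HIF2α-KO cells (10.3 to 13.8 CPM) and miR-34a-3p in HIF1α/HIF2α-KO cells (2.27 to 2.87 CPM), while miR-34b-3p stays at or below 1.39 CPM.

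Oxygen alone made no detectable difference to the members. Between hypoxic and normoxic control cells the log2 fold changes ran from -0.10 for miR-192-5p to 0.25 for miR-34a-3p, none of the 7 had an unadjusted p under 0.05 (6.23% of all miRNAs did), and none was called (0% of all miRNAs). No member was free of overlap between the 2 groups, against 17.8% of all miRNAs. The 95% interval was -0.39 to 0.19 for miR-192-5p and -0.55 to 0.43 for miR-34a-5p. The known hypoxia-induced miRNA miR-210-3p likewise was not called here, with 1040 ± 109 CPM in hypoxic and 1190 ± 151 CPM in normoxic control cells. It was called as lower in HIF1α-KO (309 ± 110 CPM, log2 fold change -1.76) and in HIF1α/HIF2α-KO cells (225 ± 108 CPM, log2 fold change -2.21), and the first of these calls was lost without control hypoxia replicate 1 or HIF1α-KO replicate 1 or 2.

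**Figure D4:**
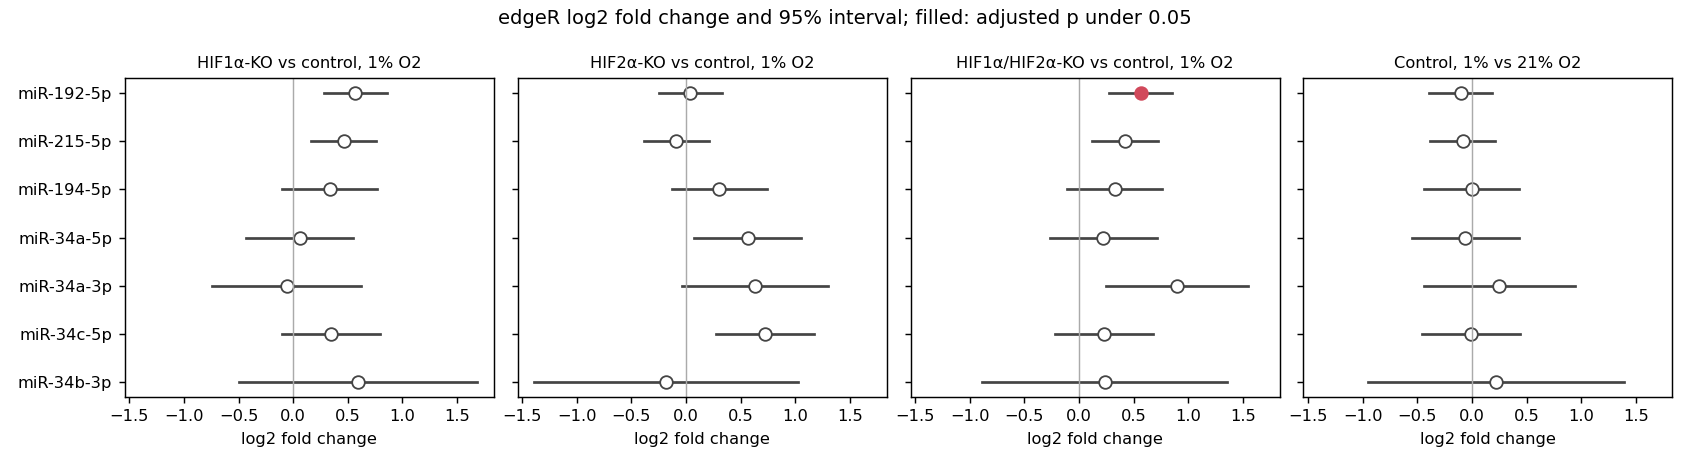
The edgeR log2 fold change of each of the 7 members (points, x axis) with its 95% interval (lines) in 4 comparisons, where a filled point has an adjusted p under 0.05. The filled point is miR-192-5p in HIF1α/HIF2α-KO against hypoxic control cells (0.56), and all intervals for hypoxic against normoxic control cells include 0.

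The median change of the members was 0.34 in HIF1α-KO, 0.30 in HIF2α-KO and 0.33 in HIF1α/HIF2α-KO cells relative to hypoxic control cells, beside medians of -0.05, -0.01 and -0.02 over all miRNAs tested. The members with a positive value numbered 6, 5 and 7 of 7. These comparisons share the hypoxic control libraries, and the members share seeds and clusters, so the 3 medians are not independent.

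The seed relatives of miR-34a-5p, miR-449a with the same seed and miR-449c-5p with the shifted one, were lower in HIF1α/HIF2α-KO cells. MiR-449a, which is known from multiciliated cells and also represses cell cycle genes, had 3.50, 3.46 and 5.10 CPM in hypoxic control cells and 1.70, 1.67 and 2.30 CPM in HIF1α/HIF2α-KO cells. MiR-449c-5p, from the same cluster, had 20.2, 15 and 16.7 CPM and 9.82, 10.0 and 8.28 CPM. In HIF1α/HIF2α-KO cells both fell, with log2 fold changes of -1.09 (SE 0.28, edgeR adjusted p = 0.0365) for miR-449a and -0.88 (SE 0.19, edgeR adjusted p = 0.0158) for miR-449c-5p. All libraries of that group were below all hypoxic control libraries for both. The call for miR-449a rested on every library, since leaving out any 1 of the 6 raised its adjusted p to between 0.0566 and 0.117.

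MiR-449c-5p was also lower in HIF1α/HIF2α-KO than in HIF2α-KO cells (22.2, 19.4 and 15.2 CPM), with a log2 fold change of -1.02 (SE 0.19, edgeR adjusted p = 0.0148). In HIF1α-KO cells it had 11.1, 12.1 and 15.3 CPM (log2 fold change -0.43, edgeR adjusted p = 0.381), and in normoxic control cells 23.6, 25.8 and 25.8 CPM. The call for miR-449c-5p against hypoxic control cells was lost without control hypoxia replicate 1 (adjusted p = 0.0835) and without HIF1α/HIF2α-KO replicate 1 (0.0609) or 3 (0.0850), and that against HIF2α-KO cells without HIF2α-KO replicate 1 (0.0903) or 2 (0.0701) or HIF1α/HIF2α-KO replicate 1 (0.0866) or 3 (0.0836). The third relative, miR-449b-5p, had at most 4 counts in any library and was not tested.

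**Figure D5:**
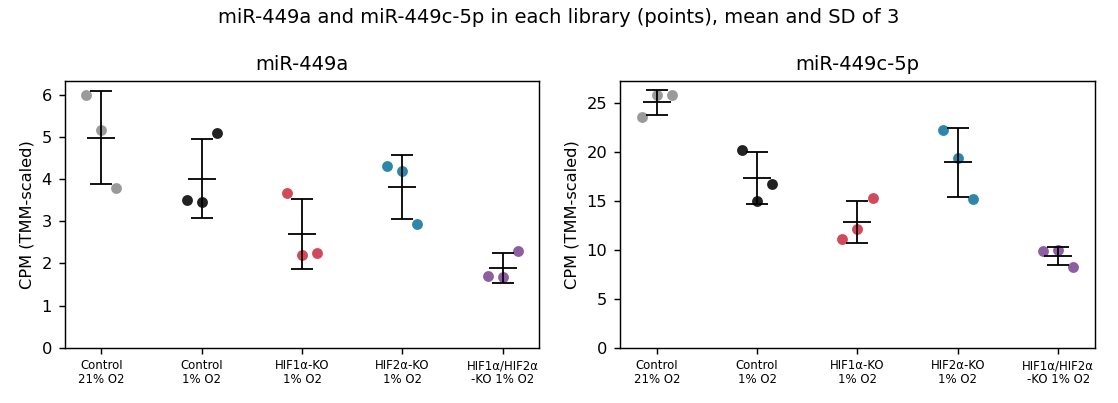
Level of miR-449a and miR-449c-5p (y axis, TMM-scaled CPM from 0) in the 5 groups (x axis), with 1 point per library and the mean and SD of 3 libraries in black. The HIF1α/HIF2α-KO points (1.67 to 2.30 CPM and 8.28 to 10.0 CPM) are below all hypoxic control points (3.46 to 5.10 CPM and 15 to 20.2 CPM).

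The 6 miRNAs of MIR17HG, the host gene of the miR-17-92 cluster, which promotes division, were all tested and none was called in any comparison, although 5 of 6 had an unadjusted p under 0.05 in HIF1α/HIF2α-KO against hypoxic control cells, with a median log2 fold change of 0.67, beside 24.4% and -0.02 for all miRNAs tested. Of the 5 opposite strands of the members, miR-194-3p was tested and not called, and the others had at most 10 counts in any library.

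The miRNAs whose log2 levels over the 15 libraries were most like those of a member were found among all miRNAs tested, as a description. For miR-192-5p they were miR-582-3p (r = 0.93), miR-378c (0.88) and miR-378a-3p (0.88), and for miR-215-5p miR-378c (0.94), miR-378d (0.88) and miR-378a-3p (0.88). For miR-194-5p they were miR-532-3p (0.92), miR-502-3p (0.85) and miR-500a-3p (0.84), a set with which it shared neither of its clusters. MiR-34a-5p was most like miR-16-5p (0.91), miR-21-3p (0.90) and miR-106b-5p (0.86), and miR-34c-5p most like miR-12136 (0.82), miR-146b-3p (0.81) and miR-148b-3p (0.77). MiR-34a-3p was most like miR-362-3p (0.78), and miR-34b-3p most like miR-1-3p (0.78), a muscle miRNA that ran from 0.975 to 41.8 CPM. The part of library composition in these correlations was not tested.

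The promoters that RefSeq gives for MIR34AHG, MIR194-2HG and MIR34BHG, the last of which was not found to overlap its hairpins in the annotation used here, from 250 bases before to 50 after the start, were searched on both strands for the HIF core motifs ACGTG and GCGTG. Of 35116 promoters, 21.4% and 36.5% held them. The promoter of MIR194-2HG, which hosts miR-192, held neither, nor did that of MIR34BHG, and that of MIR34AHG held ACGTG once and GCGTG at 2 positions. The RefSeq start of MIR34AHG lies inside the longer GENCODE gene, so the window is not the start of every annotated transcript. A match of letters is not evidence of binding, and its absence concerns this window only.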

How the data were processed

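The miRNA-Seq of 15 U87-MG libraries was used as the counts that the authors deposited, which are whole numbers of reads per mature miRNA without normalization. The submitters' processing notes list HISAT2, StringTie and DESeq2 without roles. Aligner settings, annotation and genome build are not given in the sources used here, and the quantile normalization of limma named in the study's methods is not part of the counts. Libraries were grouped by genotype, oxygen and replicate in the labels. The members and the lists of other miRNAs were chosen with earlier results of these data known. Some items are not reported here. All 7 members were tested in every comparison, and the number called is given for each, with values for some members only. The lists given here are described by counts of calls and those called, and up to 3 miRNAs most like each member by Pearson r.

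MiRNAs kept by filterByExpr (562 of 1707, at least 99.988% of counts in each library) were fitted with edgeR 4.0.16 in R 4.3.3 in a single model of all 15 libraries (TMM factors, quasi-likelihood test, Benjamini-Hochberg adjustment over all miRNAs tested, threshold 0.05). The SE is the log2 fold change divided by the root of the F statistic, and intervals are 95%. Single values were tested with two-sided exact permutation tests in SciPy 1.17.1, and correlations over 15 libraries with 100000 two-sided permutations. Replicates were not copies of each other (chi-square per degree of freedom at least 61.1 for every pair). The tests were checked on simulated data. Alternatives were DESeq2 1.42.0 size factors and its Wald test, total counts, limma 3.58.1 on quantile-normalized log2(CPM + 1), other filters, only the libraries compared, a replicate block, the log2 CPM of the summed miR-126 strands as a covariate, and each replicate left out.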

Additional observations from a re-analysis of the deposited data

How the results depend on the processing

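No member called by edgeR changed sign under any alternative. MiR-192-5p in HIF1α/HIF2α-KO against hypoxic control cells kept a log2 fold change of 0.54 to 0.63 over 9 other settings and passed in 6 of them, and 0.50 to 0.67 with each replicate left out, passing in 3 of 6. In that comparison 1 member was called, 0 without a filter on low counts, with at least 10 counts in every library or with only the libraries compared, 2 with total counts, the DESeq2 Wald test or the miR-126 covariate, and 0 to 1 with each replicate left out. For HIF1α-KO against hypoxic control cells, 0 members were called, 1 with DESeq2 size factors, total counts or the miR-126 covariate, and 2 by the DESeq2 Wald test. Over all miRNAs these settings called, in the same order, 1 higher and 7 lower, 2 and 5, 4 and 7, and 5 and 7. Without these changes 7 were called in either direction. For HIF2α-KO against HIF1α-KO cells, 0 became 2 with total counts or the DESeq2 Wald test and 0 to 2 with each replicate left out. Over all miRNAs, 6 calls in either direction became 2 higher and 10 lower with total counts, and 10 and 10 by the Wald test. For HIF1α/HIF2α-KO against HIF2α-KO cells, 0 became 2 with total counts or the DESeq2 Wald test, 1 with the miR-126 covariate, and 0 to 1 with each replicate left out. Over all miRNAs, 10 calls in either direction became 11 higher and 5 lower with total counts. They became 7 higher and 12 lower by the Wald test, and 4 and 8 with the covariate. The cause of these changes was not tested, and some settings also leave fewer miRNAs or libraries. In the other comparisons, 0 members were called under every setting. Outside the members, miR-449a passed in 5 of 9 other settings, miR-449c-5p in 7 of 9 against hypoxic control and 5 of 9 against HIF2α-KO cells, all with the same sign. With total counts the r of miR-192-5p and miR-194-5p was 0.58 and had an unadjusted permutation p under 0.05. Over all miRNAs, calls in HIF1α/HIF2α-KO against hypoxic control cells ran from 5 higher and 14 lower (at least 10 counts) to 33 higher and 38 lower (miR-126 covariate).

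Replicate numbers did not pair the libraries, since correlations of same-numbered deviations ran from -0.64 to 0.61. With the replicate block the edgeR test called 1 member in HIF1α/HIF2α-KO against hypoxic control cells and 0 in every other comparison.

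Signs that reversed, at 2 decimals, were all of uncalled differences of at most 0.42. Total counts, which lowered the median of all miRNAs in HIF2α-KO against hypoxic control cells by 0.14 on the log2 scale (-0.14), gave -0.10 for miR-192-5p there, and no filter gave -0.01. For HIF1α/HIF2α-KO against HIF1α-KO cells, total counts gave 0.02 (miR-192-5p) and 0.01 (miR-194-5p), as did only the libraries compared, and the miR-126 covariate 0.01 (miR-192-5p). For hypoxic against normoxic control cells, miR-34c-5p gave 0.04 with total counts, 0.02 with limma, 0.05 with the miR-126 covariate and 0.01 with no filter, at least 10 counts or the replicate block. The interaction of miR-192-5p was 0.12 with total counts and 0.01 with at least 10 counts, and that of miR-215-5p -0.09 with limma. With each replicate left out, reversals came within these ranges. For HIF1α/HIF2α-KO against HIF1α-KO they were -0.10 to 0.11 (miR-192-5p), -0.16 to 0.16 (miR-194-5p), -0.15 to 0.06 (miR-215-5p) and -0.06 to 0.28 (miR-34a-5p). For HIF1α/HIF2α-KO against HIF2α-KO they were -0.12 to 0.20 (miR-194-5p) and -0.03 to 0.91 (miR-34b-3p), and for HIF2α-KO against HIF1α-KO -0.25 to 0.10 (miR-194-5p). Against hypoxic control cells they were -0.05 to 0.14 (miR-192-5p) and -0.70 to 0.28 (miR-34b-3p) for HIF2α-KO, and -0.28 to 0.09 (miR-34a-3p) and -0.07 to 0.31 (miR-34a-5p) for HIF1α-KO. For hypoxic against normoxic control cells they were -0.29 to 0.08 (miR-34a-5p), -0.05 to 0.95 (miR-34b-3p) and -0.18 to 0.11 (miR-34c-5p). For the interaction they were -0.15 to 0.07 (miR-192-5p), -0.02 to 0.15 (miR-215-5p) and -0.65 to 0.31 (miR-34b-3p). Depth limits miR-34b-3p and miR-34a-3p most, with at most 18 and 41 counts in a library.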
